A study of Mus musculus with 32 samples.

Results

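The genes described here are Ednrb, Ramp1, Ramp3 and Calcrl, which encode the endothelin B receptor and the parts of the receptors for the calcitonin-family peptides CGRP and adrenomedullin. They are 4 of the 35968 genes to which deposited transcripts were matched, and all 4 are among the 17159 genes that passed the filter on low counts. The 4 were chosen by their measured levels in the 8 sample groups, so those levels and the differences between groups are given as a description, with no test. The working name for the set also spoke of adrenergic receptors, but none of the 4 encodes one.

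The study sequenced RNA of CD4+ T cells purified by flow cytometry from liver and spleen of male C57BL/6 mice of the Foxp3GFP genotype, which marks cells that express the Foxp3 gene. The cells were regulatory T cells (Treg), which restrain immune responses and depend on Foxp3, or conventional CD4+ T cells (Tconv). Mice were controls or were treated with CCl4, a compound that is toxic to hepatocytes and is used to cause liver injury and scarring; the sources used here give neither its dose and duration nor the age of the mice. Each of the 4 populations (liver Treg, liver Tconv, spleen Treg and spleen Tconv) had 3 control and 5 CCl4 libraries, 32 in all, and every group carried the same genotype. Whether libraries of 1 group came from separate animals is not stated in the labels, so every p-value below measures the spread between these samples, which may be technical. Purified cells were lysed together, so each library is a bulk measurement in which more RNA per cell and more cells with the RNA cannot be told apart.

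The endothelin B receptor is a G protein-coupled receptor for the endothelins, vasoactive peptides that are cut to their active form by endothelin-converting enzymes; it is best known in endothelium, glia and melanocytes. The calcitonin receptor-like receptor encoded by Calcrl reaches the cell surface with 1 of several small partners, the receptor activity-modifying proteins (RAMPs). With RAMP1 it forms the receptor for CGRP, a peptide released by sensory neurons, and with RAMP2 or RAMP3 it forms receptors for adrenomedullin. Calcrl receptors raise cyclic AMP through the stimulatory G protein, which activates protein kinase A and the CREB family of transcription factors.

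Libraries held between 24513124 and 75292019 estimated counts. Foxp3 followed the labels, with group means of 973 to 1061 CPM (counts relative to library size, scaled between libraries by the TMM method) in Treg groups and 0.976 to 2.89 CPM in Tconv groups. Spleen control libraries 2 and 3 stood apart from the other spleen libraries of both cell types: Fos, an immediate early gene, was at 19.4 to 26.4 CPM in these 4 libraries and at 711 to 1116 CPM in the other 12 spleen libraries. Spleen fold changes of the 4 receptor genes that move without these 4 libraries are given both ways. Those fits leave 1 control library in each spleen population, so only their effect sizes are given.

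The 250 bases upstream of each RefSeq gene start were read as context, and those of the 3 genes with the widest differences between groups are shown. They come from the RefSeq promoter table of build GRCm38.p6, in which all 4 genes were matched, cut so that no base of the gene's own annotated transcripts is included. The Ednrb window lies on the minus strand at chr14:103843702-103843951, within the first intron of the longest Ednrb transcript and directly before the starts of the other two. The Ramp1 window lies on the plus strand at chr1:91179572-91179821, directly before the start of transcript Ramp1-202, which took 3.99% of the Ramp1 counts. Ramp1-201, which took 95.6% of them, starts farther downstream, at position 91180046. The Ramp3 window, 238 bases after cutting, lies on the plus strand at chr11:6658283-6658520. Capitals mark the only match found in these windows to 5 motifs searched on both strands.
Ednrb: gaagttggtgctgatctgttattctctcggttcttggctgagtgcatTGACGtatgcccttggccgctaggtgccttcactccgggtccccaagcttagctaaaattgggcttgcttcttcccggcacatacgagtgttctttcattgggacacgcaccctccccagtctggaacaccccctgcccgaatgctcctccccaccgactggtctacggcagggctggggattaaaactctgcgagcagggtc
Ramp1: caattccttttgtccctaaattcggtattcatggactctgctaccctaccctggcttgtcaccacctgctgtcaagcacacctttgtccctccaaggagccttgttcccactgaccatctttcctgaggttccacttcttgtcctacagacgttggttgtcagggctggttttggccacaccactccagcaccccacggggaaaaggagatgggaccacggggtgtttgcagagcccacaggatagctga
Ramp3: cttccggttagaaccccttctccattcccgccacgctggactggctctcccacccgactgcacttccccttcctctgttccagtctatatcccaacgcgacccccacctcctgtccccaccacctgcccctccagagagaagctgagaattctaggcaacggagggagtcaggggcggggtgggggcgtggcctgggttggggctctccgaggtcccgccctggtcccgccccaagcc
The match is the half-site TGACG of the cyclic AMP response element, 203 to 199 bases before the Ednrb start, a motif that 17.77% of 32851 promoter windows hold. The other motifs searched were the full cyclic AMP response element TGACGTCA, which holds the half-site, the AP-1 motif TGANTCA, the GATA motif AGATAA and the forkhead motif GTAAACA, which 1.55%, 6.75%, 9.99% and 3.17% of windows hold. None of these letters is in the windows of Ramp1, Ramp3 or Calcrl. The G and C content was 56.8% for Ednrb, 54.0% for Ramp1, 66.0% for Ramp3 and 46.7% for the 105 bases left for Calcrl, against a median of 52.4% over all windows.

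Ednrb was a transcript of liver Treg. Its gene lies on the minus strand of chromosome 14 at chr14:103814625-103844402 (GRCm38). Control liver Treg libraries held 8.10, 24.3 and 15.1 CPM, and CCl4 liver Treg libraries held 49.7, 81.7, 141, 52.4 and 74.2 CPM. Every CCl4 library was above every control library, the nearest pair being 49.7 and 24.3 CPM. The group means were 15.8 ± 8.12 CPM (SD, n = 3) and 79.7 ± 36.7 CPM (SD, n = 5), a log2 fold change of 2.33 with an approximate standard error (SE) of 0.42. These values rest on 320 to 1007 estimated counts per control library and 1867 to 4620 per CCl4 library.

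In the other 6 groups Ednrb was close to absent. No library there exceeded 1.07 CPM or 43 estimated counts, and the lowest held 2 counts. The group means were 0.642 CPM in spleen Treg after CCl4, 0.458 CPM in liver Tconv after CCl4, 0.382 CPM in control spleen Treg, 0.311 CPM in control liver Tconv, 0.171 CPM in control spleen Tconv and 0.152 CPM in spleen Tconv after CCl4. Each of these groups overlapped its neighbour in that order. Liver Treg after CCl4 and control liver Treg each stood apart from all other groups, and among the low groups control spleen Treg, at 0.298 to 0.461 CPM, lay above control spleen Tconv, at 0.126 to 0.216 CPM. Between liver and spleen Treg the log2 difference was 5.38 (SE 0.57) in controls and 7.003 (SE 0.45) after CCl4. Over both treatments, the log2 difference between liver Treg and liver Tconv was 6.68 (SE 0.40), the 31st highest of all 17159 genes in that comparison.

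Of the Ednrb counts in all libraries, 63.6% were assigned to transcript Ednrb-202, 31.8% to Ednrb-203 and 4.68% to Ednrb-201, which starts farther upstream. Ednrb-201 received no counts outside liver Treg. No library of the other groups held more than 43 Ednrb counts, so shares in those groups have wide counting error. Of the summed counts there, Ednrb-203 took 71.6% to 100% in the Tconv groups. In control and CCl4 spleen Treg it took 54.6% and 43.2%. In liver Treg the share of Ednrb-202 was 63.7% of the summed counts in controls and 64.2% after CCl4, so the higher level came with the same leading transcript. Ednrb-202 and Ednrb-203 both start beside the sequence shown above.

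**Figure D1:**
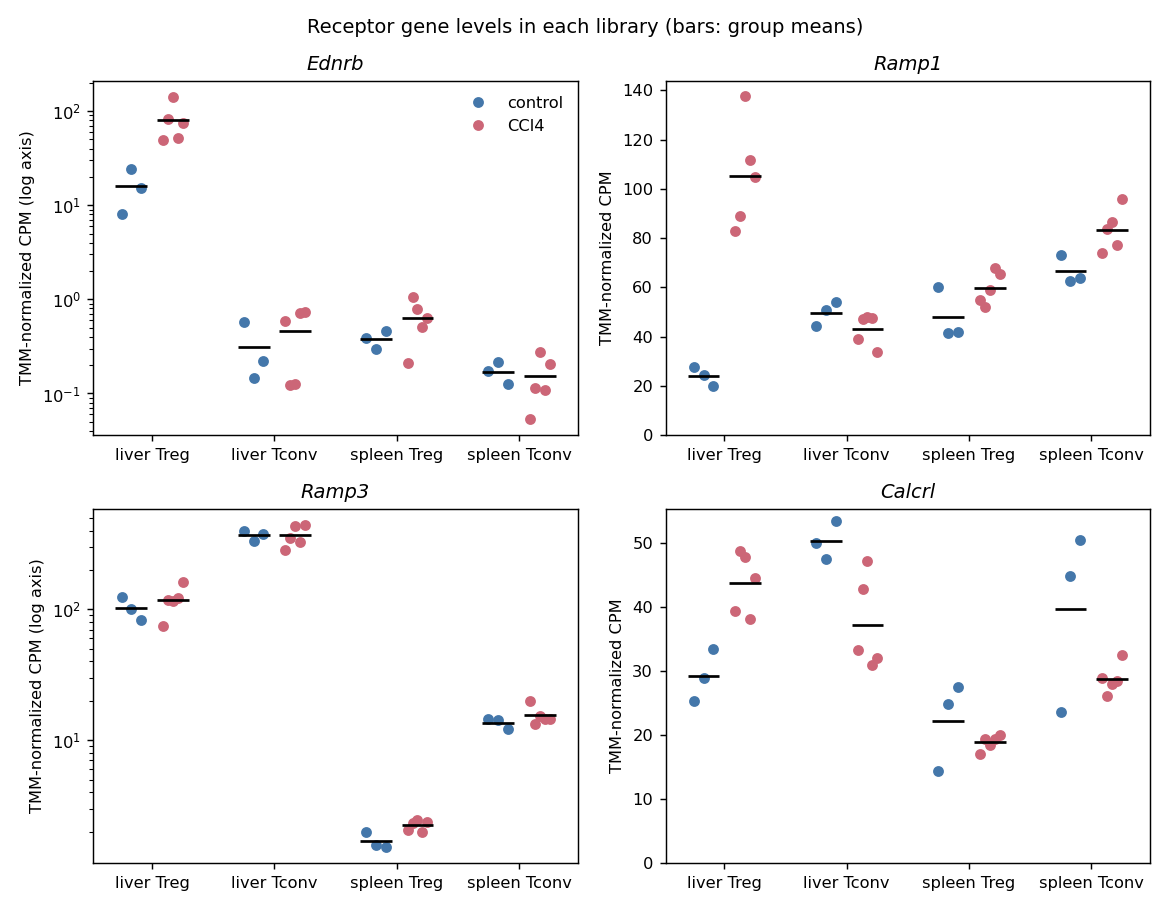
TMM-normalized CPM of the 4 genes (vertical axes, logarithmic for Ednrb and Ramp3 and linear from 0 for Ramp1 and Calcrl) in every library of the 4 populations, with control libraries in blue, CCl4 libraries in red and group means as bars. Ednrb is above 8 CPM only in liver Treg, Ramp1 moves from the lowest to the highest group mean in liver Treg after CCl4, and Ramp3 is set mainly by tissue and cell type.

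Ramp1, the partner that makes Calcrl a CGRP receptor, was found in every group, and liver Treg held both its lowest and its highest group mean. The gene lies on the plus strand at chr1:91179822-91225196. Control liver Treg libraries held 27.8, 24.3 and 19.9 CPM, and CCl4 liver Treg libraries held 82.7, 88.9, 138, 112 and 105 CPM. The groups did not overlap. The means were 24.0 ± 3.96 CPM (SD, n = 3) and 105 ± 21.7 CPM (SD, n = 5), with a log2 fold change of 2.13 (SE 0.16).

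The other populations differed less after CCl4. Liver Tconv libraries held 44.2, 50.7 and 54.1 CPM in controls and 38.9, 47.0, 48.1, 47.7 and 34.0 CPM after CCl4, which overlap. Spleen Treg libraries held 60.2, 41.6 and 42.0 CPM in controls and 54.7, 52.1, 59.0, 67.7 and 65.3 CPM after CCl4, which also overlap. The spleen Treg log2 fold change was 0.32 (SE 0.15) and came to -0.0083 without spleen control libraries 2 and 3, which hold the 2 low values. Spleen Tconv libraries held 73.1, 62.8 and 63.8 CPM in controls and 74.0, 83.6, 86.6, 77.0 and 95.7 CPM after CCl4; these do not overlap, by less than 1 CPM, and the log2 fold change was 0.33 (SE 0.15).

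The place of liver Treg relative to the other populations therefore depended on the treatment. In controls Ramp1 was lower in liver Treg than in spleen Treg by a log2 difference of -0.99 (SE 0.17), and after CCl4 it was higher by 0.82 (SE 0.13). Against liver Tconv, the difference was -1.05 (SE 0.17) in controls and 1.29 (SE 0.13) after CCl4. In each of these 4 comparisons the libraries of the 2 groups did not overlap. Of all genes, 26.1% were apart and lower in control liver Treg than in control spleen Treg and 17.9% apart and higher after CCl4, and against liver Tconv the shares were 22.7% and 15.6%. Averaged over treatments, both differences were close to 0, at -0.09 (SE 0.11) and 0.12 (SE 0.11). In the order of the 8 group means, liver Treg after CCl4 overlapped spleen Tconv after CCl4, at 83.4 CPM, while control liver Treg stood apart below liver Tconv after CCl4, at 43.1 CPM. One transcript, Ramp1-201, took 95.6% of the Ramp1 counts, with 94.3% in both liver Treg groups.

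Ramp3, a partner that makes Calcrl an adrenomedullin receptor, followed tissue and cell type, and its control and CCl4 libraries overlapped in each population. The gene lies on the plus strand at chr11:6658521-6677475. Liver Tconv libraries held 394, 333 and 373 CPM in controls and 285, 352, 435, 329 and 442 CPM after CCl4. Liver Treg libraries held 123, 101 and 82.3 CPM in controls and 74.7, 117, 116, 122 and 162 CPM after CCl4. Spleen Tconv libraries lay between 12.1 and 19.7 CPM and spleen Treg libraries between 1.53 and 2.45 CPM. The 4 populations were thus apart from each other in every library, in the order liver Tconv, liver Treg, spleen Tconv and spleen Treg.

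The log2 difference between liver and spleen was 5.83 (SE 0.16) in Treg and 4.66 (SE 0.14) in Tconv. Treg were below Tconv by -1.74 (SE 0.12) in liver and -2.91 (SE 0.15) in spleen. After CCl4 the log2 fold changes were 0.21 (SE 0.17; 0.37 without control library 1) and 0.01 (SE 0.16) in the Treg and Tconv of the liver, and 0.40 (SE 0.23) and 0.19 (SE 0.18) in those of the spleen. The spleen Treg value was 0.16 without spleen control libraries 2 and 3. Transcript Ramp3-201 took 84.9% of the counts, and Ramp3-202, a processed transcript with no annotated protein, took 15.1%. Gm11978, a transcribed pseudogene on the opposite strand, shares 101 of the 1380 exonic bases of Ramp3, and no library held more than 0.73 CPM of it.

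Calcrl, the receptor itself, varied least across the groups. The gene lies on the minus strand at chr2:84330626-84425411. Liver Treg libraries held 25.3, 28.9 and 33.4 CPM in controls and 39.4, 48.8, 47.8, 38.2 and 44.5 CPM after CCl4. Liver Tconv libraries held 50.002, 47.6 and 53.5 CPM in controls and 33.2, 42.9, 47.2, 31.0 and 32.05 CPM after CCl4. In liver Treg every CCl4 library was above every control, and in liver Tconv every CCl4 library was below every control, there by less than 1 CPM at the nearest pair. The log2 fold changes were 0.58 (SE 0.19) and -0.43 (SE 0.18); the difference between these changes was not tested.

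In the spleen, Calcrl differed among the control libraries themselves. Spleen Treg controls held 14.3, 24.9 and 27.5 CPM and spleen Tconv controls 23.7, 44.9 and 50.6 CPM, so in both cell types libraries 2 and 3, those with low Fos, were the high ones. Spleen Treg libraries after CCl4 lay between 17.0 and 20.01 CPM and spleen Tconv libraries between 26.0 and 32.6 CPM, within the range of the controls. The log2 fold changes after CCl4 were -0.24 (SE 0.18) and -0.46 (SE 0.18) with all libraries, and 0.40 and 0.28 without spleen control libraries 2 and 3, so no direction is given for Calcrl in the spleen. Within CCl4 libraries, which do not include them, Calcrl was higher in liver than in spleen Treg by 1.22 (SE 0.16) without overlap, and in Tconv by 0.37 (SE 0.16) with overlap. In the order of the 8 group means, from 50.3 CPM in control liver Tconv to 18.8 CPM in spleen Treg after CCl4, every group overlapped the next. Transcripts Calcrl-201 and Calcrl-202 took 64.9% and 32.2% of the counts.

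**Figure D2:**
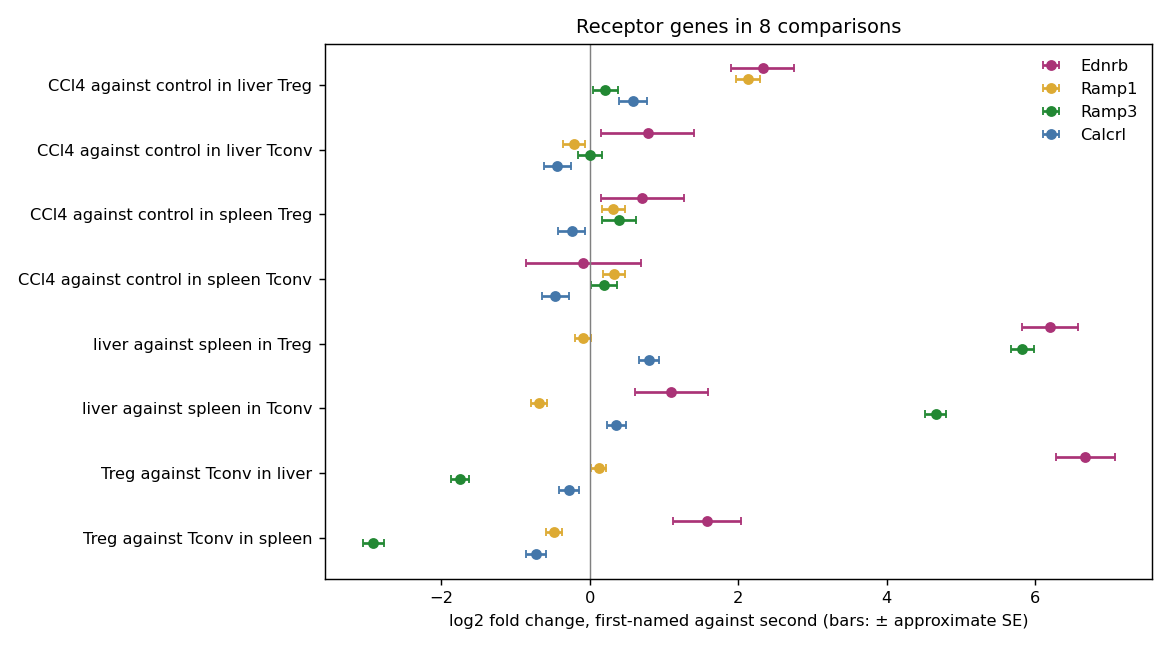
Log2 fold changes of the 4 genes (horizontal axis) in the 8 comparisons (vertical axis), the first-named condition against the second, with bars of 1 approximate SE on each side. The changes of Ednrb and Ramp1 after CCl4 in liver Treg exceed 2, while those of Ramp3 after CCl4 stay under 0.5 in all 4 populations and its differences between tissues exceed 4.

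In liver Treg, 3 of the 4 genes (Ednrb, Ramp1 and Calcrl) had CCl4 libraries wholly above the control libraries, where 19.1% of all 17159 genes had groups that did not overlap, in either direction. In liver Tconv 1 of the 4 (Calcrl) was wholly below, where 6.65% of all genes did not overlap. Ramp1 alone was wholly above in spleen Tconv, where the share was 8.82%, and none of the 4 separated in spleen Treg, where it was 10.9%. Between tissues, Ednrb and Ramp3 were higher in every liver Treg library than in the spleen Treg libraries of the same treatment, where 29.1% of all genes were apart. In Tconv this held for Ramp3 as higher and Ramp1 as lower, where 25.7% were apart. Between cell types, Ednrb was apart as higher and Ramp3 as lower in liver Treg, where the share of all genes was 23.5%, and Ramp1 and Ramp3 were apart as lower in spleen Treg, where it was 19.6%. These counts only describe the list, since these values chose its genes.

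The 3 RAMP genes can be set against each other in TPM, the deposited unit that is scaled by transcript length. Their mixture differed by population. In control liver Treg, Ramp3 supplied 87.4% ± 0.51 (SD, n = 3) of the summed RAMP TPM and Ramp1 11.3% ± 0.79. After CCl4 the Ramp3 share was 66.4% ± 6.09 (SD, n = 5) and the Ramp1 share 33.3% ± 6.05, with Ramp1 at 25.7% to 40.1% in the 5 libraries and at 10.7% to 12.2% in the 3 controls. In liver Tconv Ramp3 stayed at 93.3% and 93.8% in the 2 groups. The spleen was the other way round: Ramp1 supplied 92.7% and 93.0% of the sum in the Treg groups, and 71.5% and 73.7% in the Tconv groups. Ramp2, the other adrenomedullin partner, was at most 2.15% in any library.

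The sum of RAMP TPM exceeded Calcrl TPM in all 32 libraries. Its ratio to Calcrl was 12.3 ± 4.38 (SD, n = 3) in control liver Treg and 11.1 ± 2.22 (SD, n = 5) after CCl4. It was 24.8 and 31.9 in the 2 liver Tconv groups and between 3.83 and 6.38 in the 4 spleen groups. For Ramp1 alone the ratio to Calcrl went from 1.37 ± 0.41 in control liver Treg to 3.64 ± 0.72 after CCl4, with no overlap. For Ramp3 alone it was 10.8 ± 3.90 and 7.42 ± 1.89, with overlap.

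**Figure D3:**
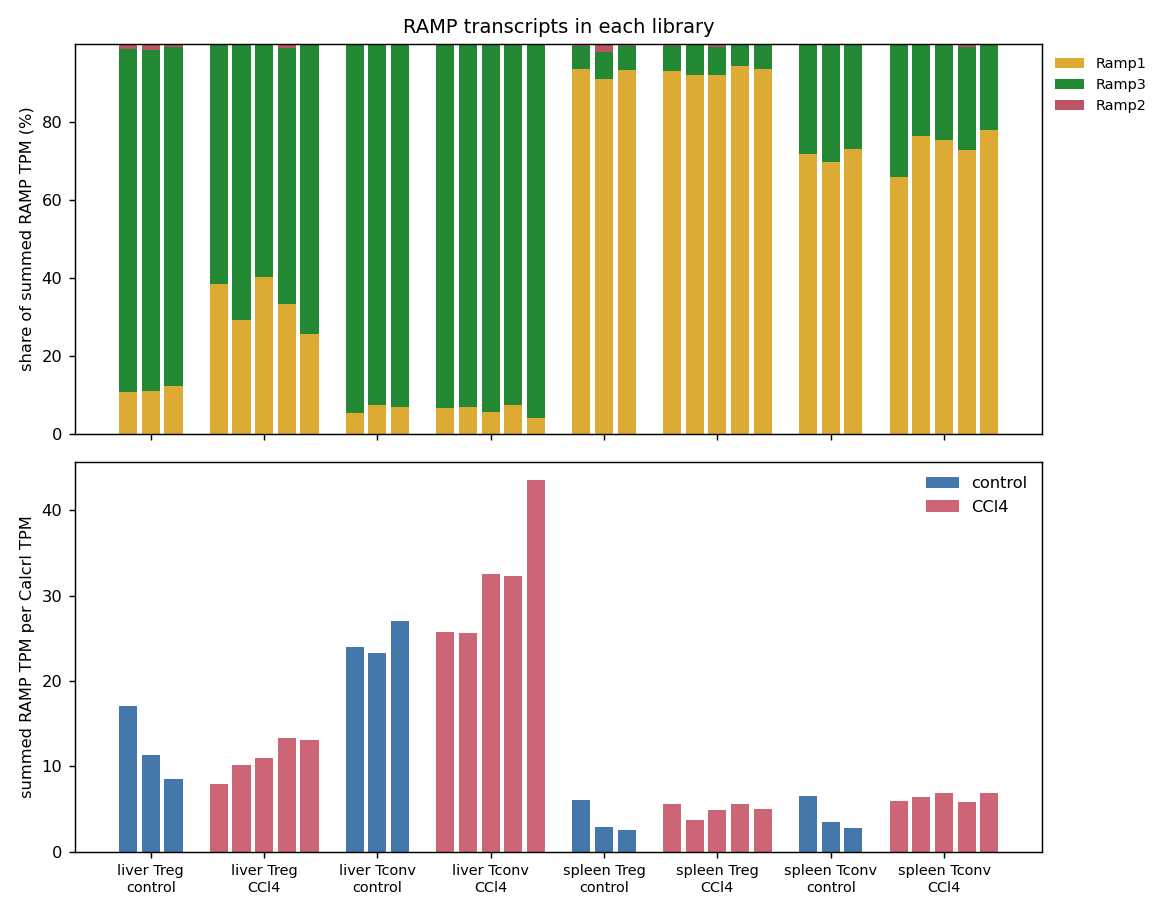
The upper panel shows the share of Ramp1, Ramp3 and Ramp2 in the summed RAMP TPM (percent) of each library, and the lower panel the summed RAMP TPM per Calcrl TPM, with 1 bar per library in 8 groups. Ramp3 takes most of the sum in liver and Ramp1 in spleen, and the Ramp1 share in liver Treg is above 25% only after CCl4.

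RNA of the genes for the peptides that these receptors bind was also read in the T cells. The peptides themselves were not measured. Calca, which encodes both calcitonin and CGRP, was at 1.65 ± 1.09 CPM (SD, n = 3) in control liver Treg and 6.39 ± 2.66 CPM (SD, n = 5) after CCl4, a difference that did not pass the test across all genes (edgeR, adjusted p = 0.072). It was at 9.66 and 6.499 CPM in liver Tconv and under 0.1 CPM in the mean of each spleen group. The difference between liver and spleen passed the test in Treg (edgeR, adjusted p = 1.94e-08) and in Tconv (adjusted p = 1.39e-09). Adm, the gene of adrenomedullin, was at 1.77 CPM in control liver Treg and 3.71 CPM after CCl4 (edgeR, adjusted p = 0.148), and was higher in liver than in spleen Treg by a log2 difference of 2.23 (SE 0.36, adjusted p = 4.4e-06).

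On the endothelin side, the ligand genes Edn1, Edn2 and Edn3 stayed at or near 0 in liver Treg. Edn1 passed the test after CCl4 (edgeR, adjusted p = 0.0188), at a mean of only 0.328 CPM against 0.0112 CPM, but not without control library 1 (adjusted p = 0.101) or control library 2 (adjusted p = 0.0996). Ednra, the other endothelin receptor gene, did not reach the level needed for a test and was at 0.0968 CPM in control liver Treg and 0.0211 CPM after CCl4. Ece1, an endothelin-converting enzyme, was well measured at 38.4 CPM and 32.1 CPM (edgeR, adjusted p = 0.365), and was lower in liver than in spleen Treg by a log2 difference of -0.69 (SE 0.12, adjusted p = 2.05e-05).

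The surrounding pathway was read from 7 lists with 87 genes, of which 72 passed the filter on low counts. In liver Treg after CCl4, 7 of the 72 rose and 8 fell (edgeR, adjusted p under 0.05), which is 20.8% where 14.9% of all genes were called, and the median log2 fold change of the lists was 0.01 against 0.00 over all genes. Of these 15 calls, 6 (Gnai2, Crem, Arrb2, Rgs3, Grk6 and Rgs16) were made under every alternative that gave a value, and the other 9 were lost under at least 1. In liver Tconv none of the 72 was called by edgeR and 1 by DESeq2, where edgeR called 0.326% of all genes; 9 of the 72 had an unadjusted p under 0.05. In spleen Treg 4 rose and none fell, with 1.18% of all genes called. In spleen Tconv 2 rose, with 1.07% called. All 6 spleen calls were lost without control library 2 and without control library 3, each left out alone. Leaving out both leaves 1 control library in each spleen population, so that fit cannot decide whether the calls hold.

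Among the other vasoactive peptide receptors, 1 of 11 tested genes was called in liver Treg. Vipr1, a receptor for vasoactive intestinal peptide, fell from 3.21 to 0.565 CPM (log2 fold change -2.48, SE 0.49, edgeR adjusted p = 0.000625), a call that was not made when these 8 libraries were fitted alone (adjusted p = 0.0917). Both levels were far below the 102 to 212 CPM means of the Tconv groups, and Treg were below Tconv by -6.33 (SE 0.32) in liver and -5.51 (SE 0.29) in spleen. In liver, Vipr1 was thus low in the cell type in which Ednrb was high.

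Among 19 tested G protein and adenylyl cyclase genes, 1 rose and 4 fell in liver Treg. Adcy7, an adenylyl cyclase, rose from 266 to 331 CPM (log2 fold change 0.31, SE 0.09), a call lost without control library 1 (adjusted p = 0.0706) or 3 (adjusted p = 0.0754). Gnai2, an inhibitory G protein subunit, fell from 1157 to 949 CPM (-0.29, SE 0.06). Gna13 fell from 807 to 655 CPM (-0.30, SE 0.08), a call lost without control library 1 (adjusted p = 0.0761). Adcy3 fell from 56.2 to 41.8 CPM (-0.43, SE 0.13), a call lost when these 8 libraries were fitted alone (adjusted p = 0.0795) and without control library 2, control library 3 or CCl4 library 1 (adjusted p = 0.0789 to 0.194). Adcy5, at 0.114 CPM in controls, had no counts after CCl4, and its call was lost without any 1 of the 8 libraries (adjusted p = 0.0508 to 0.179) and with no filter on low counts (adjusted p = 0.0577). Gnas, the stimulatory subunit through which Calcrl acts, was at 696 and 778 CPM and was not called (edgeR, adjusted p = 0.168).

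Among 17 genes of protein kinase A and CREB, 2 rose and 1 fell. Crem, a CREB-family gene that cyclic AMP itself induces, rose from 628 ± 55.2 CPM (SD, n = 3) to 922 ± 86.3 CPM (SD, n = 5), a log2 fold change of 0.55 (SE 0.13, edgeR adjusted p = 0.00435). Prkaca, a catalytic subunit of protein kinase A, rose by 0.37 (SE 0.10), a call lost when these 8 libraries were fitted alone (adjusted p = 0.0559) and without control library 1 (adjusted p = 0.116). Crebbp, a coactivator, fell by 0.32 (SE 0.10), a call lost with the replicate number as a block (adjusted p = 0.0571), with no filter (adjusted p = 0.05015) and without control library 1 or 2 or CCl4 library 4 or 5 (adjusted p = 0.053 to 0.167). Crem differed far more between tissues: it was at 14.4 to 47.0 CPM in the mean of the spleen groups, and the log2 difference between liver and spleen was 4.32 (SE 0.11) in Treg and 5.30 (SE 0.12) in Tconv.

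Among 15 receptor kinases, arrestins and RGS genes, which end G protein signalling, 3 rose and 1 fell. Rgs16 rose from 97.7 ± 11.6 CPM to 302 ± 44.2 CPM (log2 fold change 1.63, SE 0.39, edgeR adjusted p = 0.00376). Arrb2 and Rgs3 rose by 0.56 (SE 0.11) and 0.63 (SE 0.16), and the receptor kinase Grk6 fell by 0.48 (SE 0.06). The remaining call in liver Treg was Kel, an endothelin-processing peptidase at 0.296 CPM in controls and without counts after CCl4. That call was lost with the replicate block (adjusted p = 0.154), with no filter (adjusted p = 0.0502) and without any 1 library other than control 3 (adjusted p = 0.0686 to 0.111). In the spleen the calls were Gna13, Crem, Sik1 and Per1 in Treg and Gna13 and Per1 in Tconv. With the compared libraries fitted alone, their log2 fold changes were 0.34, 0.60, 1.30 and 0.98 in Treg and 0.36 and 0.96 in Tconv. Without spleen control libraries 2 and 3 they were 0.26, 0.30, 0.46 and 0.49 in Treg and 0.17 and 0.45 in Tconv.

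Between tissues and cell types, the share of the pathway that was called lay near the share of all genes. In liver against spleen, 29 rose and 20 fell in Treg (68.1%, with 60.6% of all genes called), and 21 rose and 18 fell in Tconv (54.2%, with 55.0% called). In Treg against Tconv, 21 rose and 22 fell in liver (59.7%, with 51.8% called), and 14 rose and 15 fell in spleen (40.3%, with 39.7% called).

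The genes with the patterns most like each of the 4 were sought among 11343 genes by the correlation of log2 CPM over the 32 libraries, which share tissues, cell types and treatment; the coefficients are descriptions. For Ednrb these were Kcna4 (Pearson r = 0.97, Spearman rho = 0.86), a voltage-gated potassium channel gene, Itgav (r = 0.96) and Pcyt1a (r = 0.95). Kcna4 was at 2.18 CPM in control liver Treg and 18.2 CPM after CCl4, with no other group mean above 0.212 CPM. Pcyt1a, a gene of phosphatidylcholine synthesis, was at 81.9 and 447 CPM in liver Treg and at most 29.9 CPM elsewhere. For Ramp3 they were Vps37b (r = 0.98), Gpr132 (r = 0.98) and Dusp10 (r = 0.97).

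Ramp1 and Calcrl had no match as close. Those nearest to Ramp1 were Tpd52 (r = 0.84), Pip4p2 (r = 0.80) and Gtf2ird1 (r = 0.80), and those nearest to Calcrl were Il7r (r = 0.83), Sde2 (r = 0.83) and Usp15 (r = 0.82). Among the 4 genes themselves, Ramp3 and Calcrl gave r = 0.75 (Spearman rho = 0.68), and the other 5 pairs gave r between -0.15 and 0.30. Ednrb and Ramp1, the genes with the 2 highest fold changes of the 4 after CCl4 in liver Treg, gave r = 0.13 (rho = -0.003) over all libraries.

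Endothelial, stellate and other cells of the liver also express these receptor genes, so markers of other cells were summed in each library. The 14 endothelial markers, 13 of which passed the filter, summed to 214 to 236 CPM in control liver Treg and 144 to 166 CPM after CCl4. Most of that sum was Pecam1, which T cells also express, at 199 and 106 CPM. The lower sum after CCl4 came from Pecam1. The rest of the sum was on average not lower, but it includes Stab1, which rose from 9.80 to 40.6 CPM. Gene by gene, the median log2 fold change of the 13 tested markers was -0.90, with 1 called higher and 4 called lower. The sum therefore does not stand for the markers taken singly. The endothelial cadherin gene Cdh5 was at 1.54, 0.241 and 0.64 CPM in the controls and at most 0.358 CPM after CCl4. The sinusoidal gene Stab2 was at 5.69, 1.45 and 0.471 CPM in the controls and at most 0.148 CPM after CCl4. Control library 1, the highest for both, also held 422 CPM of the pancreatic amylase gene Amy2a5, where no other liver Treg library exceeded 2.39 CPM. It held the lowest Ednrb as well, and without it the log2 fold changes after CCl4 were 2.02 for Ednrb and 2.25 for Ramp1. Stab1 was the 1 gene of the list called higher.

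The 12 stellate and fibroblast markers summed to 9.03, 61.5, 8.19, 9.41 and 50.6 CPM in the CCl4 liver Treg libraries and to 6.93 to 17.0 CPM in controls. They were also at 22.7 to 72.0 CPM in CCl4 liver Tconv libraries, in which Ednrb stayed under 0.74 CPM. The 10 hepatocyte markers summed to 6.52, 21.8, 275, 7.95 and 9.76 CPM in the CCl4 liver Treg libraries and to 39.8 to 75.4 CPM in controls. Library 3, at 275 CPM, was also the highest for Ednrb and Ramp1, and without it the log2 fold changes were 2.03 for Ednrb and 2.01 for Ramp1. Liver Tconv libraries reached 342 CPM of hepatocyte markers. None of the endothelial, stellate or hepatocyte markers was at 0 in all libraries of a liver Treg group, and the part of other cells in these levels was not tested.

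The 9 NK and innate lymphoid markers summed to 273 to 316 CPM in control liver Treg and to 292, 708, 577, 503 and 526 CPM after CCl4, so 4 of the 5 CCl4 libraries were above every control, as for Ednrb and Ramp1 all 5 were. Most of that sum was Il1rl1, the IL-33 receptor gene, which tissue Treg also express; it rose from 247 to 486 CPM (edgeR, adjusted p = 0.0145) and was the 1 gene called of 7 tested. The defining NK genes Ncr1 and Klra8 were at 0 in every liver Treg library, and Klrb1c and Eomes were at 0.0621 and 0.514 CPM after CCl4. The 5 Treg markers summed to 4856 to 5337 CPM in controls and 5983 to 6177 CPM after CCl4, and the 8 T cell markers to 5402 to 6048 CPM and 5797 to 6443 CPM. The part of these differences in the levels of Ednrb and Ramp1 was not tested.

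The 12 myeloid markers summed to 4.29 to 39.0 CPM in liver Treg libraries. The 10 dendritic cell markers summed to 218 to 344 CPM in control liver Treg and 291 to 348 CPM after CCl4, and the 7 mast cell and basophil markers to at most 6.89 CPM. The 7 B cell markers summed to 1785 to 3112 CPM in Treg libraries and 275 to 988 CPM in Tconv libraries, with 1785 to 2355 CPM in control liver Treg and 1864 to 2193 CPM after CCl4. In Treg against Tconv, 5 of the 7 were called higher in spleen and 2 in liver, and 0 lower. Of all genes, 39.7% and 51.8% were called there in either direction. After CCl4 in liver Treg, 0 of the 7 were called. The sum is not split by gene here, and the part of B cell RNA in it was not tested.

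**Figure D4:**
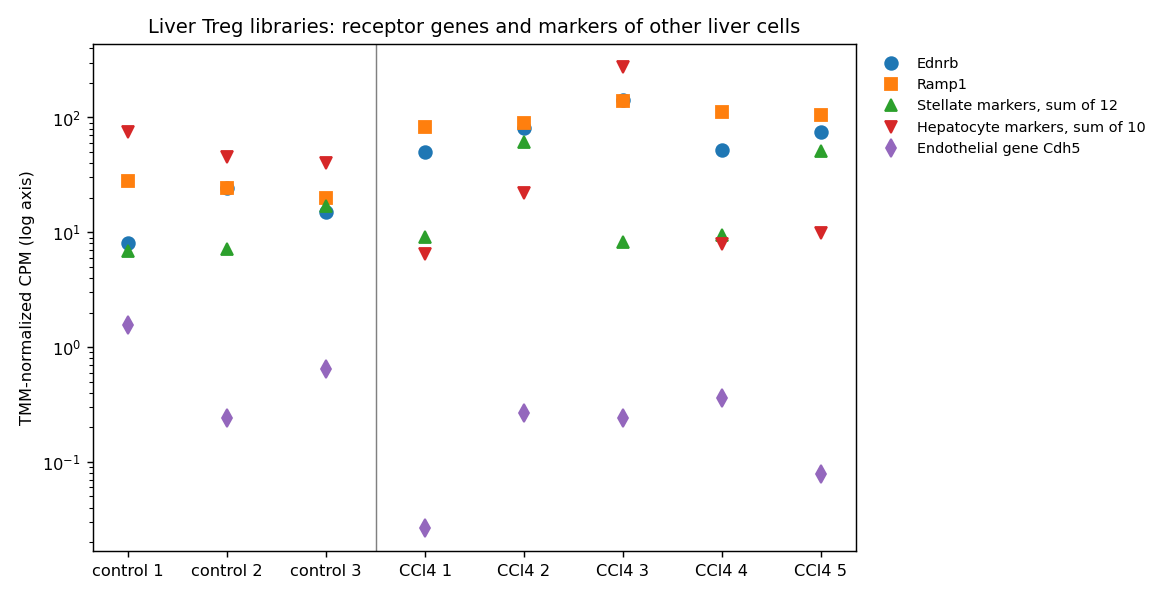
TMM-normalized CPM (vertical axis, logarithmic) of Ednrb, Ramp1, Cdh5 and the sums of the stellate and hepatocyte markers in the 3 control and 5 CCl4 liver Treg libraries, which have no order within a group. Ednrb and Ramp1 are above all controls in each CCl4 library. The stellate sum is high in 2 of the 5 and the hepatocyte sum in 1. The endothelial marker Stab1, which rose after CCl4, is not drawn, and the part of other cells was not tested.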

How the data were processed

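RNA of 32 libraries (8 groups) was measured. Per the labels' protocols, cells were sorted into Trizol, RNA was extracted with a Qiagen kit, and cDNA was made with the Clontech Ultra Low v4 kit and NexteraXT. Per the submitters' processing notes, bcl2fastq 2.19, kallisto 0.44.0 and DESeq2 were used with build GRCm38.p6; the sources used here give no annotation release or strand setting. The deposited tables hold the estimated count of each transcript, per the file headers not a whole number, and the TPM that the authors' kallisto run gave after division by effective length.

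Estimated counts and TPM were summed to genes with GENCODE M21 names (98.5% of 118489 transcripts matched; 1761 were left out). Count sums were rounded, genes were filtered by edgeR's filterByExpr, and 1 quasi-likelihood model of the 8 groups with TMM scaling was fitted (edgeR 4.0.16, R 4.3.3; 24 residual degrees of freedom), with Benjamini-Hochberg adjustment over 17159 genes and a threshold of 0.05. Comparisons of tissues or cell types average the control and CCl4 differences. Checked on simulated data for CCl4 in liver Treg (16178 genes), the model recovered 46% of genes changed by 1 on the log2 scale and 100% of those changed by 2. The simulation gave all genes the same spread and changed 100 well-expressed genes by each size. Recovery of genes near the floor, or of those with a wider spread, was therefore not measured. Members and lists were chosen with earlier results of these data known. Named genes were the 4 members, genes of each pathway list called in a comparison (otherwise the 2 of highest mean CPM), and the 3 genes most like each member among those averaging 1 CPM or more. Of the calls between tissues or cell types, only those that bear on the members are named. Alternatives were DESeq2 1.42.0 and its size factors, no filter, the compared libraries alone, a replicate block, log2 group means with a pseudocount of 0.1, leaving out each library and, chosen after seeing the data, leaving out spleen controls 2 and 3.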

Additional observations from a re-analysis of the deposited data

Results flagged for a closer look

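Calcrl moved in opposite directions after CCl4 in the 2 liver populations. Its log2 fold change was 0.58 in liver Treg, where every CCl4 library was above every control, and -0.43 in liver Tconv, where every CCl4 library was below every control. The difference between the 2 changes was not tested. Leaving out any 1 library gave 0.49 to 0.69 in liver Treg and -0.53 to -0.37 in liver Tconv.

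One CCl4 liver Treg library, number 4, held 1.46 CPM of Ramp2, far from the 0.0887 to 0.244 CPM of the other 4. Its value lay within the 0.741 to 1.47 CPM of the control liver Treg libraries, and the other 4 lay below every control. Ramp2 was near the lower limit of measurement in every group, and of the 20 groups tested in this way chance marks about 1 in 20.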

How the results depend on the processing

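All 32 fold changes of the 4 genes kept their direction or moved by less than the spread between libraries under DESeq2 size factors, the replicate block, log2 CPM means and leaving out any 1 library; DESeq2's own test, no filter and the compared libraries alone were run for the pathway genes and not for the 4 genes. Log2 means of TPM moved Ednrb between liver and spleen Treg to 5.51 and between Treg and Tconv in spleen to 0.84, Ramp1 between Treg and Tconv in liver to 0.38, and Calcrl there to 0.049, from -0.28. Without spleen controls 2 and 3, chosen after seeing the data, the CCl4 changes in spleen Treg came to -0.0083 for Ramp1, 0.16 for Ramp3 and 0.40 for Calcrl, Calcrl in spleen Tconv came to 0.28, and Calcrl between liver and spleen to 1.12 in Treg and 0.73 in Tconv; the cause was not tested. Leaving out any 1 library gave 2.02 to 2.78 for Ednrb and 2.01 to 2.25 for Ramp1 after CCl4 in liver Treg. For Ednrb in spleen Tconv after CCl4 it gave -0.41 to 0.13, and for Ramp3 in liver Tconv after CCl4 -0.07 to 0.09. For Ramp1 between liver and spleen Treg it gave -0.15 to 0.005. These changes have no direction.

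Pathway genes called after CCl4 numbered 15 in liver Treg, and 9 to 15 without any 1 library; the 9 came without control library 1. In liver Tconv the count was 0 in each such fit and 1 with DESeq2. In spleen Treg, 4 calls became 7 with DESeq2 and 0 with the compared libraries alone. Without any 1 library they numbered 0 to 7 (0 without control library 2 or 3, 7 without control library 1). In spleen Tconv, 2 calls became 7 with DESeq2, 1 with no filter and 0 with the compared libraries alone. Without any 1 library they numbered 0 to 9 (0 without control library 2 or 3, 9 without control library 1). Between tissues or cell types, 28 to 50 genes were called without any 1 library. The shares of all genes called under these fits, and with the replicate block below, are not given here. These counts therefore cannot tell a shift of the pathway from a shift of all genes.

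With the replicate number as a block, the pathway calls after CCl4 were 15, 0, 6 and 5 in liver Treg, liver Tconv, spleen Treg and spleen Tconv; the 15 no longer included Kel and Crebbp. The labels do not say that numbers pair libraries. Same-numbered libraries correlated, in deviations from their group means, between -0.2 and 0.12 for the CCl4 comparisons. For Treg against Tconv in spleen the range was 0.07 to 0.48, and every library correlated best with its own number. In liver it was 0.03 to 0.33, each best with its own number except a tie at 0.03 for CCl4 number 1. Control liver and spleen libraries also correlated best with their own number, at 0.08 to 0.14, and those after CCl4 only in part. The main model of tissues and cell types leaves out any such pairing. Depth limits Ednrb outside liver Treg, where a library held 2 to 43 counts, and Ramp2.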
